A study of Homo sapiens with 12 samples.

Results

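The genes that encode collagen chains were examined in HT1080 cells, a human line from a fibrosarcoma that carries mutant NRAS. Members were all entries of the deposited expression table whose symbol has the form COL, a number, A and a number, whether or not they were detected: 44 of 56227 entries. The 4 groups had 3 libraries each: cells given siQ61K, an siRNA against the Q61K form of NRAS, with poly(dA:dT); cells given siQ61K with DMSO; cells given the control siRNA siNC with poly(dA:dT); and cells given siNC with DMSO. Poly(dA:dT) is a synthetic double-stranded DNA that is sensed in the cytosol, and the study asked about interferon-alpha when mutant NRAS is knocked down. All groups share 1 line, siQ61K was the single siRNA against NRAS, and the sample titles name no delivery control. Loss of NRAS and any other effect of siQ61K therefore cannot be told apart, nor can poly(dA:dT) and its delivery. The labels do not say whether replicates are separate cultures, so a p-value here reflects the spread among these libraries alone, and that spread may be technical.

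Collagens are extracellular proteins built of chains that wind into a triple helix, and the family is sorted by the structure the helices form. Fibrillar collagens make the ropes of connective tissue, type IV collagens make the sheet under epithelia and around vessels, type VI collagen makes beaded filaments around cells, and FACIT collagens sit on the surface of fibrils. Chains are hydroxylated and folded in the endoplasmic reticulum, trimmed and cross-linked outside the cell, bound by integrins and discoidin domain receptors, and cut by collagenases. Fibrosarcoma cells are malignant cells of fibroblast lineage, and HT1080 is long known as a source of type IV collagen.

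NRAS checked the siRNA part of the labels. Which libraries had poly(dA:dT) was read from names and not checked here. NRAS stood at 20.1, 20.3 and 23.5 TPM in siQ61K poly(dA:dT) libraries and at 43.0, 45.9 and 51.7 TPM in siNC poly(dA:dT) libraries. In DMSO it stood at 15.5, 15.2 and 19.9 TPM under siQ61K and at 59.6, 60.6 and 41.4 TPM under siNC, so every siQ61K library lay below every siNC library. TPM is a relative abundance scaled for transcript length, so it keeps no depth, and the depth of each library is unknown. Across genes, libraries of 1 group had correlations of 0.966 to 0.984. The mesenchymal markers VIM (4728 to 7743 TPM), FN1 (284 to 496 TPM) and CDH2 (35.5 to 74.4 TPM) were high in all 12 libraries, and THY1 reached 0.126 TPM at most. None of 6 epithelial markers passed the filter, with a summed level of 0 to 0.521 TPM in siQ61K poly(dA:dT), 0.0354 to 0.822 TPM in siQ61K DMSO, 0.590 to 0.870 TPM in siNC poly(dA:dT) and 0.252 to 0.778 TPM in siNC DMSO. Of 5 cartilage and bone markers 2 passed the filter, SOX9, a factor of cartilage cells, at 33.2 to 50.2 TPM and RUNX2, a factor of bone cells, at 11.0 to 24.8 TPM. RUNX2 stood at 15.5 to 24.8 TPM in siQ61K libraries and 11.0 to 13.2 TPM in siNC libraries, with no overlap. SOX9 leaned the other way, at 33.2 to 43.7 TPM in siQ61K libraries and 43.1 to 50.2 TPM in siNC libraries. Values of siQ61K and siNC did not overlap for 45.8% of all tested genes without poly(dA:dT) and for 36.7% with it. The part of either factor in the results was not tested. The bone protein gene BGLAP reached 1.07 TPM and the cartilage proteoglycan ACAN 0.0682 TPM at most, and the bone factor SP7 was listed at 0. An earlier analysis of these data had singled out replicate 3 of siQ61K DMSO and replicate 2 of siQ61K poly(dA:dT) as standing apart across all genes, and they also had the highest and the lowest VIM. Counts of called genes are given with and without them.

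A chain was tested if 3 or more of the 12 libraries had 1 TPM or more, which 18 of the 44 met. These were 4 of 11 fibrillar chains (COL1A1, COL1A2, COL5A1, COL27A1), 3 of 6 basement membrane chains (COL4A1, COL4A2, COL4A5), 1 of 3 short-chain network collagens (COL8A1) and 3 of 5 beaded filament chains (COL6A1, COL6A2, COL6A3). The anchoring fibril chain COL7A1 passed, as did 3 of 10 FACIT chains (COL12A1, COL16A1, COL22A1), 2 of 4 transmembrane collagens (COL13A1, COL17A1) and 1 of 2 multiplexins (COL18A1). Counts of called chains below cover these 18 and not all members.

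The other 26 chains stayed under the filter, 22 of them below 1 TPM in every library. The cartilage collagen COL9A1 was listed at 0 in all 12 libraries. Among fibrillar chains the highest value in any library was 0.650 TPM for COL5A2, 0.609 TPM for COL11A1, 0.474 TPM for COL11A2, 0.461 TPM for COL2A1, 0.0416 TPM for COL3A1, 0.0395 TPM for COL24A1 and 0.0125 TPM for COL5A3. COL3A1, the type III chain of skin and vessel fibrils, was therefore close to 0 in a line of fibroblast lineage. The basement membrane chains COL4A6, COL4A4 and COL4A3 reached 0.984, 0.107 and 0.0266 TPM. Beaded filament chains COL6A5 and COL6A6 reached 0.165 and 0.108 TPM, and the multiplexin COL15A1 reached 0.284 TPM. FACIT chains COL14A1, COL20A1, COL9A3 and COL19A1 reached 0.244, 0.224, 0.113 and 0.0495 TPM, the transmembrane collagens COL25A1 and COL23A1 0.0949 and 0.0530 TPM, and the unclassed COL28A1 and COL26A1 0.414 and 0.0274 TPM.

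A further 4 chains lay just outside the filter, with 1 TPM or more in fewer than 3 libraries. COL10A1, the short-chain collagen of hypertrophic cartilage, stood at 0.593, 6.54 and 0.313 TPM in siQ61K poly(dA:dT) libraries and at 0.0374, 0 and 0.208 TPM in siNC poly(dA:dT) libraries, so its high value was that of siQ61K poly(dA:dT) replicate 2. COL9A2 reached 1.57 TPM in siQ61K DMSO replicate 3, and COL21A1 reached 1.20 TPM in siNC poly(dA:dT) replicate 1. COL8A2 stood at 0.912, 1.23 and 1.13 TPM in siQ61K DMSO and at 0.263, 0.194 and 0.487 TPM in siNC DMSO, with no overlap. Just inside it, with some libraries under 1 TPM, were COL17A1 (0.658 to 6.35 TPM), COL1A2 (0.668 to 2.26 TPM), COL8A1 (0.871 to 2.69 TPM) and COL22A1 (0.913 to 5.53 TPM).

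HT1080 collagen mRNA was dominated by type IV and type VI chains. The highest mean TPM over the 12 libraries was that of COL4A2 (186), followed by COL6A3 (135), COL6A1 (100.2), COL4A1 (94.3), COL6A2 (78.0) and COL13A1 (63.5). These 6 chains held 84.8% ± 1.96, 88.2% ± 1.21, 90.0% ± 0.522 and 89.5% ± 0.491 of summed collagen TPM in siQ61K poly(dA:dT), siQ61K DMSO, siNC poly(dA:dT) and siNC DMSO (SD, n = 3 each). All 44 chains summed to 628 ± 47.0 TPM in siQ61K poly(dA:dT), 914 ± 133 TPM in siQ61K DMSO, 731 ± 37.7 TPM in siNC poly(dA:dT) and 702 ± 25.1 TPM in siNC DMSO. The highest single sum, 1065 TPM, was that of siQ61K DMSO replicate 3, and the lowest, 577 TPM, that of siQ61K poly(dA:dT) replicate 2. Type I collagen, the main collagen of most fibroblasts, was a minor product here, with a mean of 6.13 TPM for COL1A1 and 1.37 TPM for COL1A2. In bulk RNA, fewer cells that express a gene and less RNA of it per cell cannot be told apart.

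**Figure D1:**
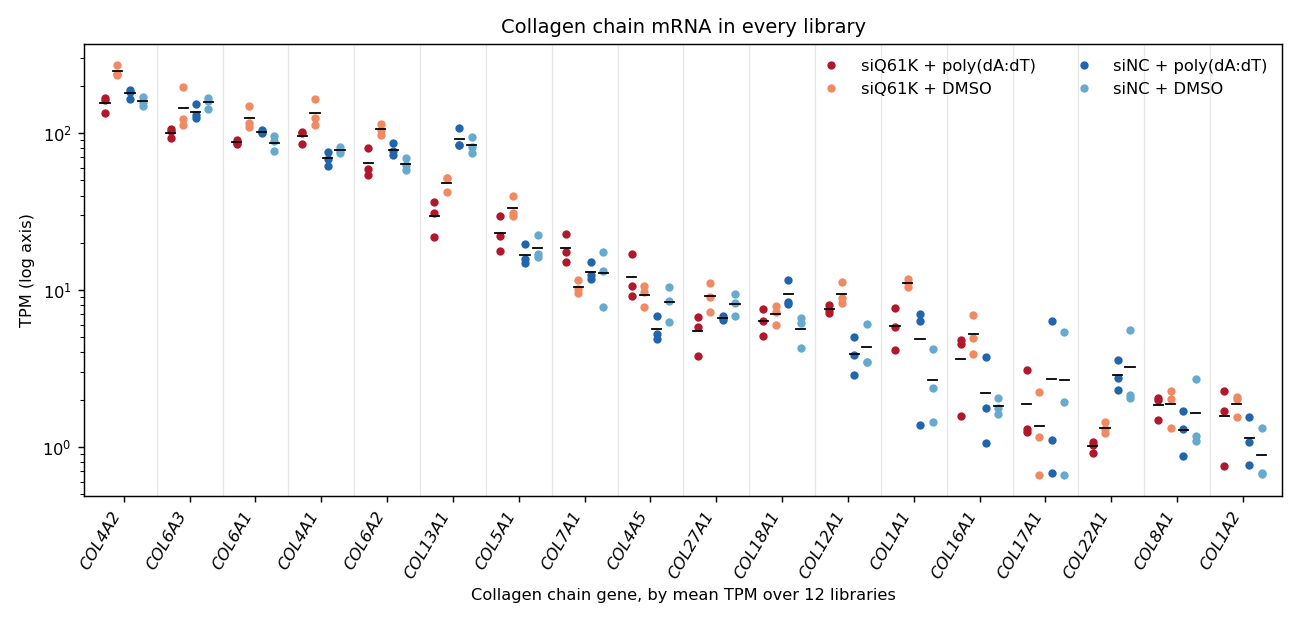
TPM (log axis) of the 18 tested collagen chains in each of the 12 libraries, ordered by mean TPM; points are libraries, black bars are group means of 3, and colours are the 4 groups. COL4A2 is highest at 134 to 274 TPM, all COL13A1 points of siQ61K lie below all those of siNC, and COL1A1 is highest in siQ61K DMSO.

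In deposited TPM the balance between classes differed by siRNA. Transmembrane collagens, which is to say mostly COL13A1, held 4.997% ± 0.869 of collagen TPM in siQ61K poly(dA:dT) against 12.9% ± 1.94 in siNC poly(dA:dT), and 5.48% ± 0.527 in siQ61K DMSO against 12.3% ± 1.64 in siNC DMSO (SD, n = 3 each). Basement membrane chains held 41.9% ± 2.37 in siQ61K poly(dA:dT) against 34.8% ± 0.732 in siNC poly(dA:dT), and 43.2% ± 0.846 in siQ61K DMSO against 35.1% ± 0.179 in siNC DMSO. In each of these pairs all 3 siQ61K libraries lay on the same side of all 3 siNC libraries. Beaded filament chains took 40.2% ± 1.18, 40.8% ± 2.22, 43.5% ± 1.52 and 43.8% ± 1.70 of the sum in siQ61K poly(dA:dT), siQ61K DMSO, siNC poly(dA:dT) and siNC DMSO. Shares of a sum are not independent of each other, and no test was made of them. They were not corrected for GC content, which fold changes across genes followed, as described below.

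**Figure D2:**
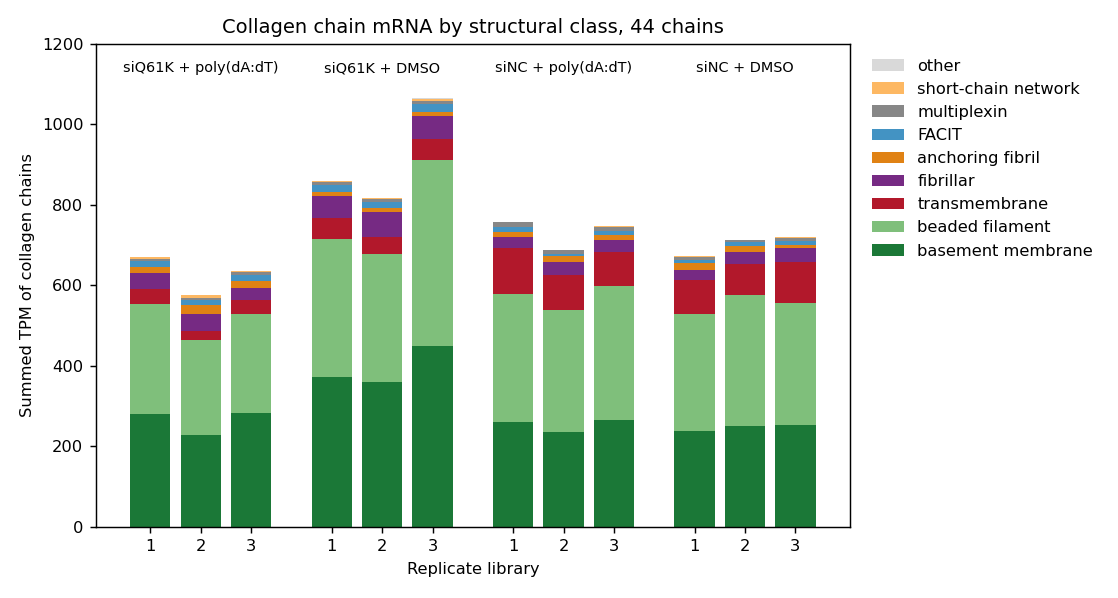
Summed TPM of the 44 collagen chains in each library, stacked by structural class; bars are single libraries numbered by replicate within the 4 groups. Basement membrane and beaded filament chains make up most of every bar, the transmembrane part is thinner in siQ61K libraries than in siNC libraries, and siQ61K DMSO replicate 3 has the tallest bar at 1065 TPM.

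Partner chains that assemble into 1 molecule kept different ratios. The alpha1 and alpha2 chains of type IV collagen form a joint helix, and COL4A1 stood at 0.618 ± 0.0207 of COL4A2 TPM in siQ61K poly(dA:dT) against 0.385 ± 0.0254 in siNC poly(dA:dT) (SD, n = 3 each). In DMSO that ratio was 0.536 ± 0.0616 under siQ61K and 0.491 ± 0.0432 under siNC, a difference within the spread of the libraries. Type VI collagen needs 1 chain each of COL6A1, COL6A2 and COL6A3 in its common form. COL6A1 stood at 0.869 ± 0.0557 of COL6A3 TPM in siQ61K poly(dA:dT) and 0.754 ± 0.0685 in siNC poly(dA:dT), and at 0.884 ± 0.120 in siQ61K DMSO and 0.557 ± 0.0719 in siNC DMSO. The ratio was lowest in siNC DMSO, and these are descriptions with no test. The ratios were not corrected for GC content either, and the longest transcript had 63.5% GC for COL6A1 and 53.2% for COL6A3.

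Type IV genes lie in pairs that share a promoter region, head to head on opposite strands, which bears on chains that are read out together. In the RefSeq promoter windows (GRCh38.p14, 250 bases before to 50 after a start), which were found for 32 of the 44 chains and 13 of the 18 tested, the starts of COL4A1 and COL4A2 on chromosome 13 were 127 bases apart and their windows shared 226 bases. COL4A3 and COL4A4 on chromosome 2 started 419 bases apart, and COL4A5 and COL4A6 on chromosome X 380 bases apart. COL4A3 and COL4A4 were both close to 0. In the pair on chromosome X, COL4A5 TPM was 29.2 ± 12.04 times that of COL4A6 in siQ61K poly(dA:dT) and 10.8 ± 0.187 times in siNC poly(dA:dT). In DMSO it was 31.4 ± 15.2 times under siQ61K and 9.90 ± 0.578 times under siNC. COL4A6 was under the filter at 0.207 to 0.984 TPM, so these ratios divide by low values and no test was made of them. The windows of COL4A2, of COL12A1, which was higher after knockdown, and of COL13A1, which was lower, are shown 5′ to 3′ on the strand of the gene: COL4A2 at chr13:110307034-110307333 (plus strand), COL12A1 at chr6:75206004-75206303 (minus strand) and COL13A1 at chr10:69801656-69801955 (plus strand). Capitals mark matches, read on both strands, to the Sp1 box GGGCGG, the CCAAT box CCAAT or the AP-1 site TGANTCA.
COL4A2: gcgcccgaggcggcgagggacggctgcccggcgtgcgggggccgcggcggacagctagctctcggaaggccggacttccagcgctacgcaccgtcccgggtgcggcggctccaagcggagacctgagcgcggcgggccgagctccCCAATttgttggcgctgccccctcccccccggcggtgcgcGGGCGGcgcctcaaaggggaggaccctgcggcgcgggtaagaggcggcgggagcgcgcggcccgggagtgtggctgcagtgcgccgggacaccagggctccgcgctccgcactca
COL12A1: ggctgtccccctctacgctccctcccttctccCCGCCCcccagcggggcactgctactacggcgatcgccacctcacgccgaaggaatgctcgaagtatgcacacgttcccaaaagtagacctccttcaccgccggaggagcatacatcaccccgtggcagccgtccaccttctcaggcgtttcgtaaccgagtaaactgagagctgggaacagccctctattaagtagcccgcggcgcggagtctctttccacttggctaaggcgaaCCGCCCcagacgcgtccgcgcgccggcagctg
COL13A1: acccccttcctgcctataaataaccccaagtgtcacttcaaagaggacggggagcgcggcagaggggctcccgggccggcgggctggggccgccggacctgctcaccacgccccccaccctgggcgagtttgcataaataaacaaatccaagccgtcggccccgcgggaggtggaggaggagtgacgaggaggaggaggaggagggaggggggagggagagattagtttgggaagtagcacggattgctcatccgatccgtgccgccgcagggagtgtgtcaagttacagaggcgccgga
The COL4A2 window held 1 CCAAT box and 1 Sp1 box, that of COL12A1 held 2 Sp1 boxes, both read on the opposite strand, and that of COL13A1 held no match to these motifs. Of 35116 RefSeq windows, 45.0% held the Sp1 box, 34.6% the CCAAT box and 7.71% the AP-1 site. No 2 marked matches overlap in the printed windows. Among the 44 windows of collagen chains, some of which had more than 1 start, 24 held the Sp1 box, 14 the CCAAT box and 1 the AP-1 site. The ETS core CCGGAA was in 0 of the 44 and in 17.2% of all windows, and the interferon response core (GAAA, any 2 bases, GAAA) was in 1, that of COL17A1, and in 3.57% of all windows. These are matches of letters only.

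Most of the tested collagen chains also had transcripts of high GC content, which the selection did not use. The median GC content of the longest annotated transcript was 59.6% over the 18 tested chains, against 48.1% over all tested genes, and 15 of the 18 lay above that median of all genes. Across genes, log2 fold changes followed GC content in each comparison, with a Spearman correlation of 0.505 for knockdown without poly(dA:dT), -0.245 for knockdown with it, -0.572 for poly(dA:dT) under siQ61K and 0.503 for poly(dA:dT) under siNC. Over the 18 chains alone the correlations were 0.077, -0.304, -0.333 and 0.569 in the same order. Genes are not independent replicates, and these correlations describe the libraries. Counts of called genes and the values of most called chains are therefore also given after each library was corrected for GC content and transcript length. Adjusted p-values are those of limma over all 14722 tested genes, and a chain was called at an adjusted p under 0.05. Fold changes are differences of log2(TPM + 1), which understates the change of low genes.

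Knockdown without poly(dA:dT) asked what siQ61K did to unstimulated cells. The fibrillar chains COL1A1 and COL5A1, the type IV chains COL4A1 and COL4A2, the type VI chains COL6A1 and COL6A2 and the FACIT chains COL12A1 and COL16A1 were higher in siQ61K DMSO than in siNC DMSO, and the transmembrane collagen COL13A1 and the FACIT chain COL22A1 were lower. Of the 18 tested chains 8 rose and 2 fell, where 16.6% of all tested genes rose and 14.8% fell (31.5% in either direction). The median log2 fold change of the 18 was 0.39, against 0.01 over all tested genes, but 0.11 against 0.03 after the GC and length correction. Leaving out the 2 libraries that stand apart kept the 8 higher chains, and the 2 lower ones were then COL13A1 and COL6A3. Values of both groups did not overlap for 11 of the 18, as for 45.8% of all tested genes. For such genes the exact two-sided permutation test gave p = 0.1, the smallest it can give with 3 libraries against 3.

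Among fibrillar chains, COL1A1, a chain of type I collagen, stood at 11.0, 10.5 and 11.7 TPM in siQ61K DMSO against 1.44, 4.20 and 2.38 TPM in siNC DMSO. The siQ61K values were close together and all above the highest siNC value (log2 fold change 1.78, SE 0.40, adjusted p = 0.00519). After the GC and length correction the rise was 1.33 (adjusted p = 0.0305). COL5A1, a chain of the type V collagen that nucleates fibrils, had 29.8, 40.0 and 30.8 TPM in siQ61K DMSO against 16.3, 16.9 and 22.4 TPM in siNC DMSO. These did not overlap either (0.82, SE 0.19, adjusted p = 0.00660), but the correction took the value to 0.39 (adjusted p = 0.153). COL1A2, the partner of COL1A1, had a log2 fold change of 0.62 (adjusted p = 0.0976) and passed the test after the correction alone (0.84, adjusted p = 0.0395), while COL27A1 stood at 0.13 (adjusted p = 0.664).

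Both type IV chains of the common basement membrane network rose. COL4A1 stood at 126, 113 and 165 TPM in siQ61K DMSO against 76.9, 82.0 and 74.99 TPM in siNC DMSO. The groups were well apart, with siQ61K DMSO replicate 3 the highest (log2 fold change 0.76, SE 0.14, adjusted p = 0.00143), and the rise was 0.61 without that library and siQ61K poly(dA:dT) replicate 2 (adjusted p = 0.00355). COL4A2 had 238, 236 and 274 TPM in siQ61K DMSO against 149.6, 159 and 170.1 TPM in siNC DMSO, with no overlap (0.64, SE 0.11, adjusted p = 0.000916). After the correction COL4A1 remained called at 0.47 (adjusted p = 0.0159) and COL4A2 did not, at 0.17 (adjusted p = 0.246). COL4A5, the chain of the minor type IV networks, was at 0.16 (adjusted p = 0.635).

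Type VI chains did not move alike. COL6A2 stood at 105, 97.8 and 115 TPM in siQ61K DMSO against 58.3, 62.5 and 69.1 TPM in siNC DMSO (log2 fold change 0.73, SE 0.14, adjusted p = 0.00209). COL6A1 stood at 116, 109 and 148 TPM against 89.2, 95.6 and 76.6 TPM in the same groups (0.50, SE 0.12, adjusted p = 0.00788). For both chains every siQ61K value exceeded every siNC value, yet after the GC and length correction they stood at 0.18 (adjusted p = 0.204) and 0.02 (adjusted p = 0.948). COL6A3, the long chain that joins them, had 124, 112 and 198 TPM in siQ61K DMSO against 143, 168 and 159.7 TPM in siNC DMSO. Its groups overlapped, with siQ61K DMSO replicate 3 the highest (-0.16, adjusted p = 0.516, or -0.39 with an adjusted p of 0.0530 after the correction), and without that library COL6A3 was called lower (-0.41, adjusted p = 0.0267).

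FACIT chains, which attach to fibrils, moved in both directions. COL12A1, the chain of type XII collagen on type I fibrils, stood at 8.92, 8.30 and 11.2 TPM in siQ61K DMSO against 3.50, 6.09 and 3.49 TPM in siNC DMSO. The groups did not overlap, and the rise was 0.99 on the log2 scale (SE 0.22, adjusted p = 0.00458), or 1.00 after the correction (adjusted p = 0.00213). COL16A1 stood at 6.91, 3.88 and 4.96 TPM in siQ61K DMSO against 1.62, 2.06 and 1.76 TPM in siNC DMSO (1.13, SE 0.35, adjusted p = 0.0265). It lost the call after the correction (0.64, adjusted p = 0.184) and without siQ61K DMSO replicate 1 (0.94, adjusted p = 0.105), siQ61K DMSO replicate 3 (1.15, adjusted p = 0.0530) or siNC DMSO replicates 1, 2 or 3 (adjusted p = 0.0800, 0.0524 and 0.0557). COL22A1, a collagen known from junctions of muscle and tendon, was between 1.23 and 1.45 TPM in siQ61K DMSO and between 2.04 and 5.53 TPM in siNC DMSO (-0.77, SE 0.28, adjusted p = 0.0494). That call was lost in 10 of 12 fits with 1 library left out, most of all without siNC DMSO replicate 3 (-0.41, adjusted p = 0.195), whereas after the correction it was -1.15 (adjusted p = 0.00515). Poly(dA:dT) libraries are in neither group compared here, and leaving out any 1 of them kept -0.77 (adjusted p = 0.0546 to 0.0616).

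COL13A1, a transmembrane collagen of cell adhesion sites and the neuromuscular junction, stood at 51.5, 42.3 and 51.4 TPM in siQ61K DMSO against 81.8, 75.1 and 94.6 TPM in siNC DMSO. All 3 siQ61K values lay below the siNC values, and the fall was -0.78 (SE 0.17, adjusted p = 0.00500), or -1.13 after the correction (adjusted p = 0.000245). COL18A1 (log2 fold change 0.28), COL8A1 (0.15), COL7A1 (-0.21) and COL17A1 (-0.48) were not called either. After the correction 4 chains were higher (COL1A1, COL1A2, COL4A1, COL12A1) and 2 lower (COL13A1, COL22A1), where 12.7% of all genes with a GC content were higher and 12% lower (24.7% in either direction). The 11 chains with a GC content above 56.1%, the upper quartile of tested genes, had a median log2 fold change of 0.50, against 0.42 over all 3576 genes above that value.

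Knockdown with poly(dA:dT) present asked the same in stimulated cells, from libraries that the comparison above did not use as groups. COL13A1 and COL22A1 were again lower, COL12A1 and COL4A1 again higher, and COL4A5 was higher as well. With 3 chains higher and 2 lower of 18, the shares of all tested genes were 8.71% and 12.6% (21.4% in either direction). Of all genes called 40.8% were higher, or 51.3% after scaling by median of ratios. The median of the 18 was 0.07, against -0.07 over all tested genes (0.11 and -0.07 after the correction), and 9 of 18 did not overlap, as for 36.7% of all tested genes. The 4 chains called in both knockdown comparisons had the same direction in both. How many of all tested genes were called in both, and with the same direction, was not counted. This is therefore not shown to be particular to the chains.

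COL13A1 changed most. It stood at 36.2, 21.8 and 31.2 TPM in siQ61K poly(dA:dT) against 108, 84.2 and 83.9 TPM in siNC poly(dA:dT). The groups were far apart (log2 fold change -1.62, SE 0.17, adjusted p = 3.79e-05), and the fall was -1.47 after the correction (adjusted p = 2.87e-05) and -1.42 without the 2 libraries that stand apart (adjusted p = 0.000249). COL22A1 lay between 0.913 and 1.08 TPM in siQ61K poly(dA:dT) and between 2.29 and 3.59 TPM in siNC poly(dA:dT), also with no overlap (-0.94, SE 0.28, adjusted p = 0.0288, and -0.73 with an adjusted p of 0.0462 after the correction). Its call was lost without siQ61K poly(dA:dT) replicate 2 or 3 (adjusted p = 0.0635 and 0.0780) and without siNC poly(dA:dT) replicate 1 or 3 (adjusted p = 0.102 and 0.0640).

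COL4A5 stood at 10.6, 9.10 and 16.8 TPM in siQ61K poly(dA:dT) against 4.90, 6.80 and 5.24 TPM in siNC poly(dA:dT), and every siQ61K value was the higher (log2 fold change 0.95, SE 0.23, adjusted p = 0.0108). COL12A1 stood at 7.10, 8.004 and 7.50 TPM in siQ61K poly(dA:dT) against 3.86, 2.88 and 5.01 TPM in siNC poly(dA:dT) (0.82, SE 0.22, adjusted p = 0.0181). COL4A1 stood at 100.2, 84.7 and 102 TPM in siQ61K poly(dA:dT) against 68.9, 62.0 and 76.2 TPM in siNC poly(dA:dT) (0.46, SE 0.14, adjusted p = 0.0297). Neither COL12A1 nor COL4A1 overlapped, and after the correction these 3 chains were called at 1.02, 0.83 and 0.62. COL12A1 lost the call without replicate 2 of siQ61K poly(dA:dT) (0.78, adjusted p = 0.0602), without replicate 3 of siQ61K poly(dA:dT) (0.82, adjusted p = 0.05) and without siNC poly(dA:dT) replicate 2 (0.66, adjusted p = 0.0806). COL4A1 lost it without siQ61K poly(dA:dT) replicates 1 or 3 (adjusted p = 0.0601 and 0.0973) and siNC poly(dA:dT) replicates 1 or 2 (adjusted p = 0.0716 and 0.115).

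Other chains that differed without poly(dA:dT) did not pass the test here. COL1A1 stood at 7.69, 5.81 and 4.11 TPM in siQ61K poly(dA:dT) against 1.38, 7.001 and 6.29 TPM in siNC poly(dA:dT), and the groups overlapped, with siNC poly(dA:dT) replicate 1 the lowest (log2 fold change 0.38, adjusted p = 0.545). COL5A1 was at 0.42 (adjusted p = 0.142) and passed after the correction (0.67, adjusted p = 0.0202), which left 4 chains higher and 2 lower, where 10.2% of all genes were higher and 15.7% lower (25.9% in either direction). COL4A2, COL6A1 and COL6A2 were at -0.21, -0.23 and -0.30 (adjusted p = 0.185, 0.205 and 0.148). COL6A2 was called lower when siQ61K poly(dA:dT) replicate 1 was left out (-0.47, adjusted p = 0.0128). COL6A3 was at -0.43, with an adjusted p of 0.0956 with all libraries and 0.0153 when siQ61K DMSO replicate 3 was left out. That library is in neither group compared here, so leaving it out changed the estimate of the spread and not the fold change. Without the 2 libraries that stand apart COL12A1 (adjusted p = 0.0567) and COL22A1 (adjusted p = 0.0704) lost their calls.

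**Figure D3:**
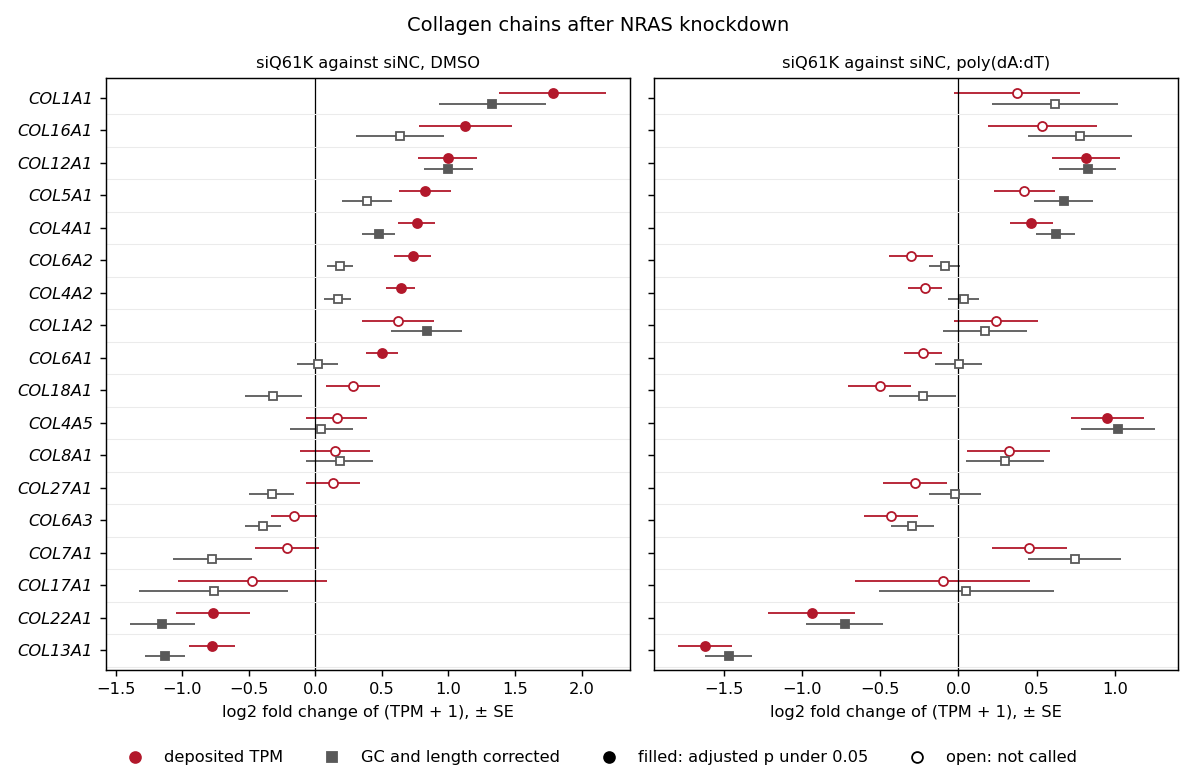
Log2 fold change of (TPM + 1), siQ61K over siNC, of the 18 tested collagen chains in DMSO (left) and with poly(dA:dT) (right); circles are deposited TPM, squares are values after GC and length correction, bars are standard errors, and filled symbols have an adjusted p under 0.05. COL12A1 and COL4A1 are filled to the right of 0 and COL13A1 and COL22A1 to the left of 0 in both panels with both kinds of value.

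Poly(dA:dT) under siQ61K asked how stimulated cells with NRAS knocked down differed from unstimulated ones. The type IV chains COL4A1 and COL4A2, the type VI chains COL6A1 and COL6A2, the transmembrane COL13A1 and the fibrillar COL27A1 were lower with poly(dA:dT), with log2 fold changes of -0.72 to -0.47, and the anchoring fibril chain COL7A1 was higher. Of the 18 chains 6 fell and 1 rose, where 18.3% of all tested genes fell and 6.92% rose (25.2% in either direction). The median of the 18 was -0.47, against -0.15 over all tested genes. After the GC and length correction the order was the other way, with -0.06 for the 18 and -0.16 over all genes, and without the 2 libraries that stand apart the medians were -0.22 and -0.04. Scaling by median of ratios took the median of all genes to -0.01, and the same number of chains was called, with 1 higher and 6 lower. Of the genes called, 27.5% were higher in deposited TPM and 52.6% after that scaling. Groups did not overlap for 12 of the 18, as for 39.3% of all tested genes. None of the 6 lower calls remained after the GC and length correction and COL7A1 alone was called, where 8.59% of all genes were lower and 2.94% higher (11.5% in either direction). Without the 2 libraries that stand apart limma called 0 of the 18 chains and 144 of all tested genes.

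COL7A1, whose product anchors the epidermis to the dermis, stood at 15.0, 22.8 and 17.5 TPM in siQ61K poly(dA:dT) against 11.5, 10.2 and 9.52 TPM in siQ61K DMSO. The groups did not overlap (log2 fold change 0.75, SE 0.24, adjusted p = 0.0360), and the rise was 1.36 after the correction (adjusted p = 0.0208). Leaving out siQ61K poly(dA:dT) replicate 2, the highest library, gave 0.59 (adjusted p = 0.144), and the call was also lost without replicate 3 of siQ61K poly(dA:dT) (adjusted p = 0.0847) or siQ61K DMSO replicates 1, 2 or 3 (adjusted p = 0.0606, 0.0773 and 0.103).

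COL6A2 stood at 80.2, 58.7 and 54.3 TPM in siQ61K poly(dA:dT) against 105, 97.8 and 115 TPM in siQ61K DMSO (log2 fold change -0.72, SE 0.14, adjusted p = 0.00582). COL4A2 stood at 169, 134 and 162 TPM in siQ61K poly(dA:dT) against 238, 236 and 274 TPM in siQ61K DMSO (-0.69, SE 0.11, adjusted p = 0.00313). COL6A1 stood at 90.8, 84.7 and 86.2 TPM against 116, 109 and 148 TPM in the same groups (-0.49, SE 0.12, adjusted p = 0.0130). In all 3 the groups lay apart, and after the correction they were at -0.29, -0.15 and -0.03 with adjusted p-values of 0.0765, 0.306 and 0.905. COL13A1 fell by 0.71 (adjusted p = 0.0126), or by 0.39 after the correction (adjusted p = 0.107), and lost the call without replicate 2 of siQ61K poly(dA:dT) (adjusted p = 0.0535). COL27A1, a fibrillar chain of cartilage, stood at 6.69, 3.78 and 5.84 TPM in siQ61K poly(dA:dT) against 8.98, 7.23 and 11.0 TPM in siQ61K DMSO (-0.66, adjusted p = 0.0327). COL4A1 was the least changed of the called chains (-0.47, adjusted p = 0.0256). After the correction COL27A1 was at -0.11 (adjusted p = 0.698) and COL4A1 at -0.09 (adjusted p = 0.644). COL27A1 and COL4A1 both lost the call without replicate 2 of siQ61K poly(dA:dT) (adjusted p = 0.139 and 0.105) or replicate 3 (0.0654 and 0.0522), and without siQ61K DMSO replicate 1 (0.0807 and 0.0502) or replicate 3 (0.115 and 0.0972). Calls of lower level were gained for COL1A1 without siNC poly(dA:dT) replicate 1 (-0.85, adjusted p = 0.0375), for COL5A1 when siQ61K poly(dA:dT) replicate 2 was left out (-0.72, adjusted p = 0.0369) and for COL6A3 without siQ61K DMSO replicate 2 (-0.63, adjusted p = 0.0263). Replicate 1 of siNC poly(dA:dT) is in neither group compared here, and the COL1A1 fold change was the same with it.

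Poly(dA:dT) under siNC asked for the same response with the control siRNA, and no chain passed the test. Limma called 0 of 18 chains and 18 of 14722 genes (0.122%, with 0.0747% higher and 0.0475% lower). An unadjusted p under 0.05 was found for 2 of the 18 chains and for 1640 of the 14722 genes. COL18A1, whose product yields the fragment endostatin, stood at 11.6, 8.14 and 8.42 TPM in siNC poly(dA:dT) against 6.58, 4.29 and 6.15 TPM in siNC DMSO. The groups did not overlap, but the change of 0.64 (SE 0.20) had an adjusted p = 0.328, and after the correction it was 0.34 (adjusted p = 0.753). After the correction 0 chains were called, where 0.112% of all genes were higher and 0.0909% lower (0.203% in either direction). COL6A2 was at 0.31 (SE 0.14, adjusted p = 0.443). Groups did not overlap for 3 of the 18 chains (COL18A1, COL6A1 and COL6A2), as for 17.9% of all tested genes, and the median of the 18 was 0.02, against -0.07 over all tested genes (-0.10 and -0.06 after the correction).

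The interaction tested whether poly(dA:dT) acted differently under each siRNA, as the siQ61K response minus the siNC response. COL6A2, COL4A2, COL13A1 and COL6A1 had a lower response under siQ61K: 4 of 18 chains, and none higher, where 12.1% of all tested genes were lower and 6% higher (18.1% in either direction). COL6A2 differed by -1.03 (SE 0.20, adjusted p = 0.00999), from a response of -0.72 under siQ61K and 0.31 under siNC. COL4A2 differed by -0.85 (SE 0.15, adjusted p = 0.00822), from -0.69 and 0.17 in the same order. COL13A1 differed by -0.84 (SE 0.25, adjusted p = 0.0347) and COL6A1 by -0.73 (SE 0.17, adjusted p = 0.0173). COL13A1 lost the call, with an adjusted p of 0.0517 to 0.0862, without siNC DMSO replicates 1 or 2, siNC poly(dA:dT) replicates 1 or 2, siQ61K DMSO replicates 1 or 3, or siQ61K poly(dA:dT) replicates 2 or 3. Of all genes called 33.2% were higher, or 47.5% after scaling by median of ratios. The Spearman correlation of this difference with GC content was -0.656 across genes and -0.548 over the 18 chains. After the correction COL4A2, COL6A2, COL13A1 and COL6A1 stood at -0.13, -0.27, -0.34 and -0.02 and none of the 18 was called, where 1.05% of all genes were higher and 0.951% lower (2% in either direction). Without the 2 libraries that stand apart COL4A2 alone was called (-0.68, adjusted p = 0.0405). COL1A1 was called lower without siNC poly(dA:dT) replicate 1 (-1.97, adjusted p = 0.0253), and COL7A1 higher without siNC DMSO replicate 3 (0.97, adjusted p = 0.0257).

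**Figure D4:**
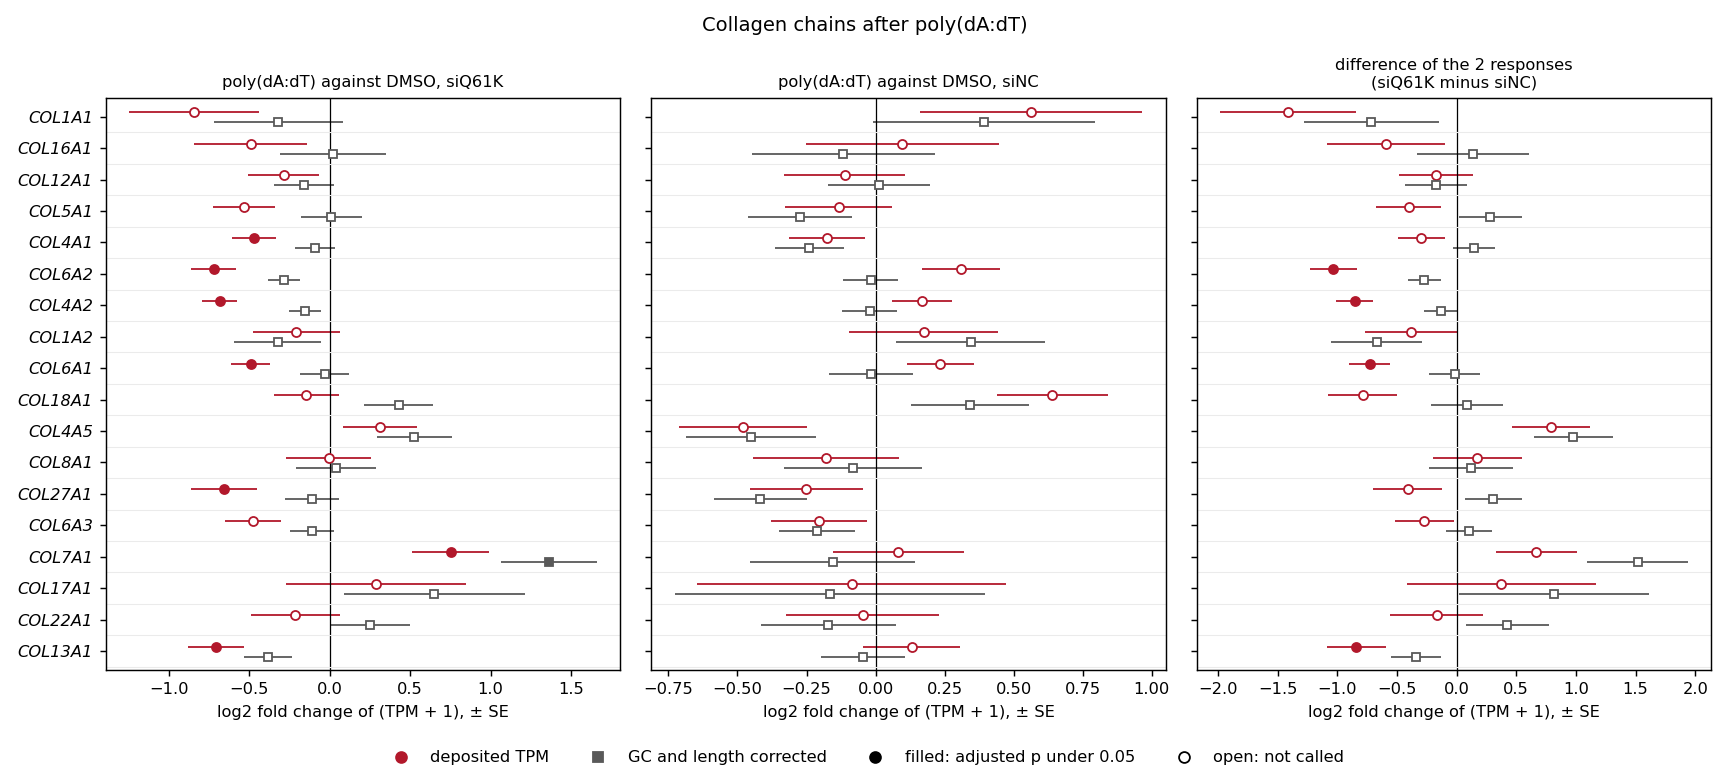
Log2 fold change of (TPM + 1), poly(dA:dT) over DMSO, of the 18 tested collagen chains under siQ61K (left) and under siNC (middle), and the difference of both responses (right); symbols and bars as in the plot of knockdown fold changes, with axes of different range. Filled circles under siQ61K sit left of 0 except for COL7A1, the panel for siNC has no filled symbol, and COL7A1 under siQ61K is the one filled square.

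Genes that modify, export, trim, bind and cut collagen were counted beside the chains, 50 of them tested. Without poly(dA:dT), 19 of the 50 were higher and 9 lower in siQ61K DMSO than in siNC DMSO, where 16.6% of all tested genes were higher and 14.8% lower. There were 14 higher and 13 lower without the 2 libraries that stand apart, where 4471 of 14722 tested genes were called in either direction. Hydroxylation and glycosylation genes rose in 7 of 14 and fell in 1. P3H2, a prolyl 3-hydroxylase that acts on type IV collagen, averaged 5.22 ± 0.559 TPM in siQ61K DMSO and 1.14 ± 0.610 TPM in siNC DMSO (SD, n = 3 each; log2 fold change 1.57, adjusted p = 0.000250), and its relatives P3H3 (1.28) and P3H4 (0.71) rose. P4HA1, a catalytic subunit of prolyl 4-hydroxylase, fell to 47.0 ± 4.24 TPM in siQ61K DMSO, against 75.1 ± 8.09 TPM in siNC DMSO (-0.66). In folding and export 4 of 14 rose and 2 fell, with the prolyl isomerases FKBP10 (0.83) and PPIB (0.63) and the transcription factor CREB3L1 (0.80) higher, and SEC24D, a coat protein of transport vesicles, lower (-0.84).

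Propeptide removal and cross-linking genes rose in 5 of 9 and fell in none. BMP1, which trims the C-terminal propeptide, averaged 86.2 ± 13.7 TPM in siQ61K DMSO and 30.4 ± 4.83 TPM in siNC DMSO (SD, n = 3 each; log2 fold change 1.48, adjusted p = 0.000151). ADAMTS2, which trims the N-terminal one, rose by 1.31, and the cross-linking oxidases LOXL2 and LOXL1 by 0.65 and 0.59. Receptors fell in 4 of 8 and rose in 2. ITGB1, the shared beta chain of collagen-binding integrins, averaged 295 ± 45.0 TPM in siQ61K DMSO and 879 ± 97.2 TPM in siNC DMSO (-1.57), and its alpha partners ITGA1 (-1.39), ITGA10 (-0.91) and ITGA2 (-0.91) fell. DDR1 and MRC2, a collagen-sensing kinase and an uptake receptor named here after their values were seen, rose by 0.83 and 0.79. Of 5 collagenases and gelatinases MMP2 rose (0.97), MMP1 (-1.15) and MMP9 (-0.68) fell, and 2 were not called. After the GC and length correction, hydroxylation and glycosylation had 4 higher and 1 lower, and folding and export 3 and 1. Propeptide removal and cross-linking had 2 and 0, receptors 0 and 4, and collagenases and gelatinases 1 and 2. Of all 50 genes 10 were then higher and 8 lower, where 12.7% of all genes with a GC content were higher and 12% lower. The 11 that lost their calls were PLOD1, P3H4, COLGALT1, SERPINH1, MIA2, CREB3L1, LOXL1, LOXL2, LOXL3, DDR1 and MRC2, and FKBP7 was called after the correction alone (0.84); those outside the naming rule are listed to account for every change.

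With poly(dA:dT), 3 of the 50 were higher and 10 lower in siQ61K than in siNC, where 8.71% of all tested genes were higher and 12.6% lower. There were 3 higher and 9 lower without the 2 libraries that stand apart, where 2360 of 14722 tested genes were called in either direction. P3H2 averaged 5.42 ± 0.516 TPM in siQ61K poly(dA:dT) and 0.820 ± 0.148 TPM in siNC poly(dA:dT) (SD, n = 3 each; log2 fold change 1.82, adjusted p = 8.2e-05). The lysyl hydroxylases PLOD2 and PLOD3 were at 0.69 and -0.41. SEC24D (-0.56) and SEC13 (-0.49), both parts of the vesicle coat, fell, as did the cross-linking oxidase LOX (-0.64). ITGB1 (-1.23), ITGA10 (-0.94) and ITGA1 (-0.70) fell, with 3 of 8 receptors lower and none higher. MMP9 averaged 11.8 ± 3.31 TPM in siQ61K poly(dA:dT) and 37.1 ± 5.75 TPM in siNC poly(dA:dT) (-1.60), MMP14, a membrane-bound collagenase, fell by 1.13 on the log2 scale and MMP1 by 1.12, and MMP2 rose by 0.43. After the correction PLOD3 was no longer called (-0.24, adjusted p = 0.147), and P4HA1 (-0.32), BMP1 (0.75), LOXL1 (0.46) and ITGA2 (-0.64) were.

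**Figure D5:**
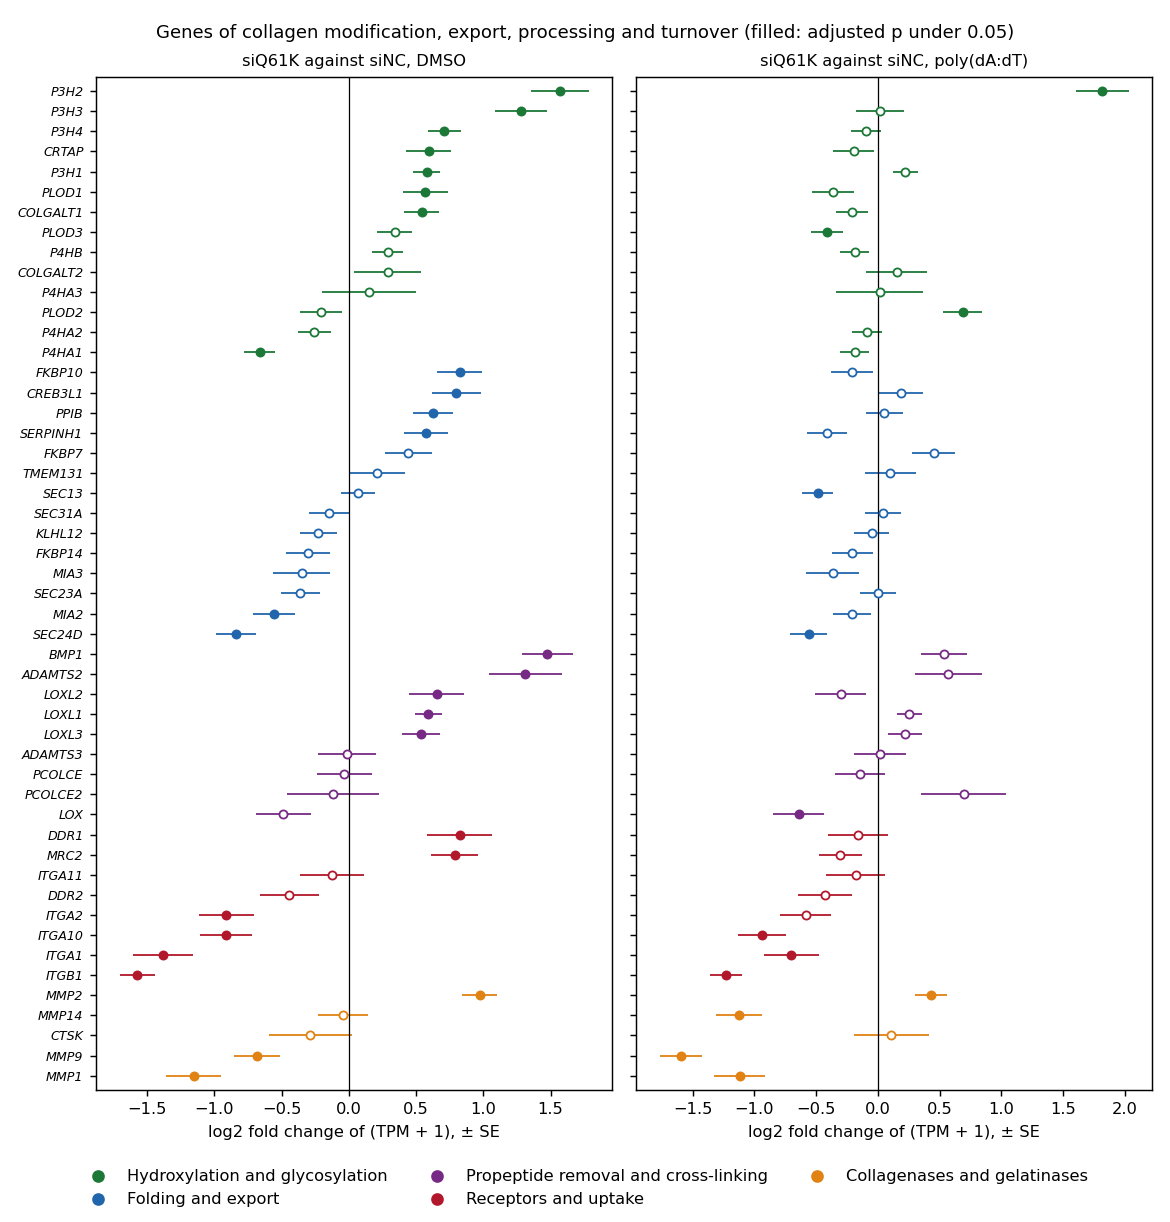
Log2 fold change of (TPM + 1), siQ61K over siNC, of 50 tested genes of collagen modification, export, processing, binding and turnover in DMSO (left) and with poly(dA:dT) (right); points are deposited TPM, bars are standard errors, colours are the gene lists and filled points have an adjusted p under 0.05. P3H2 is filled at 1.57 and 1.82, and ITGB1, ITGA1, ITGA10, SEC24D, MMP1 and MMP9 are filled left of 0 in both panels.

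Under siQ61K, poly(dA:dT) went with 20 lower and 1 higher of the 50 genes, where 18.3% of all tested genes were lower and 6.92% higher. Without the 2 libraries that stand apart 1 of the 50 was lower (LOXL1, -0.62, adjusted p = 0.0367) and 0 were higher. That fit called 144 of all tested genes in this comparison, against 3712 with all libraries. It also had fewer libraries a group, so it cannot tell an effect of those 2 libraries from that of smaller groups. LOXL2 averaged 183 ± 56.9 TPM in siQ61K poly(dA:dT) and 375 ± 68.9 TPM in siQ61K DMSO (SD, n = 3 each; log2 fold change -1.06), and BMP1 (-0.91), LOXL1 (-0.65) and LOXL3 (-0.62) of the same list fell. The collagen chaperone SERPINH1 (-0.88), FKBP10 (-0.86) and SEC13 (-0.48) fell. So did P3H3 (-0.83), CRTAP (-0.78), which partners a prolyl 3-hydroxylase, PLOD1 (-0.74) and COLGALT1 (-0.60), and MMP14 (-0.97), MMP9 (-0.69) and MMP2 (-0.64). DDR1 (-1.09) and MRC2 (-0.86) fell among receptors, and PLOD2 was the gene that rose (0.48). After the correction 9 were lower, among them SERPINH1, FKBP10, LOXL2 and CRTAP, and none higher. Of all genes with a GC content 8.59% were then lower and 2.94% higher. Under siNC 0 of the 50 were called, where 0.122% of all tested genes were. An unadjusted p under 0.05 was found for 5 of the 50 and for 1640 of 14722 tested genes. In the interaction 14 were lower and 1 higher, where 12.1% of all tested genes were lower and 6% higher. After the correction limma called 0 of the 50, with 12 at an unadjusted p under 0.05, as were 2840 of 14301 genes. Of all genes with a GC content 1.05% were then higher and 0.951% lower. Without the 2 libraries 0 of the 50 were lower and 1 higher (PLOD2, 1.06, adjusted p = 0.0487), where 494 of all tested genes were called. As the reads carry no stated strand, a chain and an antisense transcript over it cannot be told apart in these values.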

How the data were processed

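RNA from 12 libraries of HT1080 cells was sequenced on a NovaSeq after preparation with an NEBNext Ultra kit, per the labels' protocols. The deposited table gives TPM, a length-scaled relative transcript abundance, which the authors computed per gene; Salmon 0.8.0 and hg19 are named in the submitters' processing notes, and the annotation is not given in the sources used here. Column names of the table abbreviate the sample titles and were matched to them by their parts. TPM keeps no depth, so no counting interval can be given.

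The members and gene lists were chosen with earlier results of these data known. Symbols shared by several entries (984 entries, 58 symbols) were left out of tests. The 14722 genes that had 1 TPM or more in 3 or more libraries were tested on log2(TPM + 1) with limma 3.58.1 in R 4.3.3, with a variance trend, a mean for each of 4 groups and Benjamini-Hochberg adjustment over all tested genes at 0.05. The interaction was a contrast of the same fit. Single values were compared by the exact two-sided permutation test, whose smallest p is 0.1. In a corrected version, the deviation of each library from a gene's mean log2(TPM + 1) over all libraries was used. A lowess curve (span 0.3) of these deviations on GC content of the longest GENCODE transcript was removed in each library. A like curve on the log2 length of that transcript was removed next. This covered 14301 of 14722 genes (97.1%). The fit was tested on simulated data.

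Values in every library were given for chains called in at least 1 comparison with a group mean of at least 5 TPM, and other chains by range or highest value; in the pathway lists up to 4 called genes per list and comparison were named by size of change. Alternatives were a pseudocount of 0.1 or 5, a filter on a mean of 5 TPM or none, 2 other scalings, the correction, a replicate block, no variance trend, a fit to only the groups compared, and leaving out 1 or 2 libraries. With a library left out, its group of 2 shared the spread of all groups. Gene coordinates are not printed because the genome used here is not hg19, and promoter windows come from RefSeq on GRCh38.p14. The labels do not call the kit strand-specific.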

Additional observations from a re-analysis of the deposited data

Results flagged for a closer look

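The response of 4 chains to poly(dA:dT) differed between siQ61K and siNC by the interaction test of limma. The log2 difference, siQ61K minus siNC, was -0.85 for COL4A2, with responses of -0.69 and 0.17, and -0.73 for COL6A1, with responses of -0.49 and 0.23. It was -1.03 for COL6A2, with responses of -0.72 and 0.31, and -0.84 for COL13A1, with responses of -0.71 and 0.13. After the GC and length correction these differences were -0.13, -0.02, -0.27 and -0.34, with adjusted p-values of 0.652, 0.978, 0.318 and 0.418. Without the 2 libraries that stand apart they were -0.68, -0.57, -0.92 and -0.59, with adjusted p-values of 0.0405, 0.0595, 0.0507 and 0.105.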

How the results depend on the processing

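Limits of these values are 3 libraries a group, 1 siRNA against NRAS, 1 cell line, unknown depth, and fold changes that follow GC content. No result changed sign past the threshold under any alternative run. For knockdown without poly(dA:dT), 10 chains were called, 8 higher and 2 lower. After correcting for GC and length 6 were called, 4 higher and 2 lower. With the replicate block added to that 6 were called, 3 higher and 3 lower. Over all genes these fits called 4632, 3530 and 3338. With no filter, which also tests chains outside the 18, 12 were called, and 3701 over all genes. There COL16A1 and COL22A1 lost the call, and the low chains COL5A2, COL8A2, COL6A5 and COL14A1 gained it. With 1 library left out 8 to 9 were called, and 3040 to 4983 over all genes. For knockdown with poly(dA:dT), 5 were called, 2 with no filter and 3 without the 2 libraries that stand apart. With 1 library left out 2 to 6 were called. The count was 3 without siQ61K poly(dA:dT) replicate 2, siNC poly(dA:dT) replicate 1 or siNC poly(dA:dT) replicate 2. It was 2 without siQ61K poly(dA:dT) replicate 3. Over all genes this comparison called 3144, but 2391 with no filter and 2360 without those 2 libraries that stand apart. With 1 library left out it called 2127 to 3770 genes. For poly(dA:dT) under siQ61K, 7 were called, 4 with no filter, 1 after the correction, 2 after it with the replicate block, 0 without the 2 libraries, and 4 to 8 with 1 library left out; it was 4 without siQ61K poly(dA:dT) replicate 2 or 3 or siQ61K DMSO replicate 1 or 3. For poly(dA:dT) under siNC, 0 were called under every alternative run. In the interaction 4 were called, 0 after the correction with or without the replicate block, 1 without the 2 libraries, and 3 to 5 with 1 library left out; the fit to only the groups compared cannot be made there. Over all genes, poly(dA:dT) under siQ61K called 3712, but 2328 with no filter, 1648 after the correction, 1524 after it with the block and 144 without the 2 libraries, and the interaction called 2662, but 1026, 286, 213 and 494. Of 18 same-numbered pairs of libraries, 3 had deviations correlated over 0.1 (range -0.260 to 0.233). Pairs with different numbers were not set beside them, so whether replicate numbers pair the libraries was not settled. With the replicate block alone the counts were 9, 5, 8, 0 and 4: COL22A1 lost its call in knockdown without poly(dA:dT) (adjusted p = 0.0609), and COL6A3 was called lower with poly(dA:dT) under siQ61K (-0.48, adjusted p = 0.0384). The cause of these changes was not tested.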
